A study of Homo sapiens with 6 samples.

Results

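Long noncoding RNAs (lncRNAs) are transcripts that are not translated into a known protein, many of them capped, spliced and polyadenylated like mRNAs. Some act where they are made, at the gene beside them or on chromatin, some build nuclear bodies such as paraspeckles, some bind proteins or microRNAs in the cytoplasm, and some are the primary transcripts from which microRNAs are cut. In squamous carcinoma cells, lncRNAs such as UCA1, CYTOR and CASC9 are known for high or altered levels. The set described here held 358 well-expressed lncRNA genes of HSC-4, a human oral squamous cell carcinoma line, out of 14933 lncRNA genes and 58884 genes in all. The members were chosen by their level: annotated as lncRNA in GENCODE 44, with a mean of at least 5 CPM (counts scaled by the library's total) over all 6 libraries. The limit left 381 lncRNA genes, and 23 were then set aside by symbol (the SNHG genes and GAS5, ZFAS1, EPB41L4A-AS1 and DANCR, most of them hosts of small nucleolar RNAs). The mean level was thus used to choose the members and is given as a description, and the difference between DAPT and control is not part of the rule, although the mean spans both groups. All 358 members also passed the filter on low counts of the test.

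RNA was sequenced from HSC-4 cells kept for 24 h with 50 μM DAPT, an inhibitor of γ-secretase, the protease that releases the active part of Notch receptors (3 libraries), and from control cells of the same line that received no DAPT (3 libraries). The labels call the second group only control and the study's methods name a DMSO vehicle, while the headers of the control counts carry the letters GM, which they do not explain, so an effect of the solvent cannot be told apart from that of DAPT if the solvent was given to the treated cells alone. HSC-4 is a single line, γ-secretase cuts many membrane proteins besides Notch, and nothing in the sources states that the 3 libraries of a group came from separate cultures, so p-values measure the spread between these libraries only.

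The libraries held between 12276313 and 16317672 counts on genes, so that 3 counts, taken as the limit of detection, equalled 0.184 to 0.244 CPM. HES1, a direct Notch target that serves as the check of the treatment, read 42.5, 50.3 and 48.2 CPM in the control libraries and 27.9, 27.2 and 27.3 CPM with DAPT. CPM by library of a tested gene are given after scaling by TMM here and below. All 10 markers of squamous epithelium that were looked up had a mean of 1 CPM or more over the 6 libraries. Their summed level was 7135 to 7318 CPM in control and 5198 to 5344 CPM with DAPT. KRT14 had the lowest mean. Before scaling by TMM it read 2.94, 3.46 and 2.93 CPM in control and 0.720, 0 and 0.625 CPM with DAPT. The summed level of the immune markers was 0.149 to 0.353 CPM, with means of at most 0.0591 CPM for the defining PTPRC, CD3E and CD68, and the endothelial markers PECAM1 and KDR at most 0.0407 CPM. The 4 endothelial markers summed to 1.22 to 1.65 CPM in control and 2.46 to 2.94 CPM with DAPT, the difference being CDH5. Control replicate 1 stood apart from the other libraries, since fibroblast genes were high in it. The summed level of 6 fibroblast markers was 544 CPM there and 50.3 to 57.0 CPM in the other 5 libraries, with COL1A2 at 212 CPM against 0.196 to 1.98 CPM. Among the members, in contrast, none read more than 1.5 times as high in control replicate 1 as in both other controls, and only PPP1R14B-AS1 read lower than both by that factor. Most counts of changed members are therefore given with and without this library.

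With 1 chromosome left out, the search found 30 annotated microRNA hairpins in an exon or intron of 18 members, on the strand of the host. It was incomplete on other chromosomes too, since it found none for MIR22HG, a named microRNA host. Of the 18 hosts found, 2 were higher and 4 lower with DAPT (33.3% called, with a background of 35.2% of all tested genes). The counts were the same without control replicate 1. The mature microRNAs themselves were not measured. Shown here are 1 or more mature sequences (RefSeq, GRCh38.p14) of each of the hosts with a changed level, a choice out of 48 in all, and, for comparison, those of MIR222HG, whose miR-221-3p and miR-222-3p share a seed, with the seed (bases 2 to 8) in capitals.
hsa-miR-205-5p, MIR205HG, chr1:209432166-209432187, plus strand: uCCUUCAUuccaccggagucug
hsa-miR-210-3p, MIR210HG, chr11:568112-568133, minus strand: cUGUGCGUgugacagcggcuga
hsa-miR-4435, CYTOR, chr2:87629764-87629785, plus strand: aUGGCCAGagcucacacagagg
hsa-miR-4435, MIR4435-2HG, chr2:111321061-111321082, minus strand: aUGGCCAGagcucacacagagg
hsa-miR-374b-5p, FTX, chrX:74218587-74218608, minus strand: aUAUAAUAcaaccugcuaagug
hsa-miR-421, FTX, chrX:74218392-74218414, minus strand: aUCAACAGacauuaauugggcgc
hsa-miR-4712-5p, GABPB1-AS1, chr15:50360337-50360358, plus strand: uCCAGUACaggucucucauuuc
hsa-miR-221-3p, MIR222HG, chrX:45746180-45746202, minus strand: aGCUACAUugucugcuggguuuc
hsa-miR-222-3p, MIR222HG, chrX:45747036-45747056, minus strand: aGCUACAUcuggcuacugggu

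The hosts CYTOR and MIR4435-2HG, which lie on the opposite arms of chromosome 2, carry the same mature sequence and both were lower with DAPT. Apart from that pair and the pair of MIR222HG, no seed was shared among the sequences shown. miR-205 is a microRNA of epithelial cells and miR-210 is known as the microRNA of the hypoxia response.

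RefSeq promoter sequences (250 bases before to 50 after the annotated start) matched 213 of the 358 members by symbol. The start is that of RefSeq and can differ from the start of the counted gene. For CYTOR and DLGAP1-AS2 the window lies wholly inside the counted gene, so it may not be the promoter of the transcripts counted. Printed below are the promoters of the members with the largest fall and rise among those matched (CYTOR and DLGAP1-AS2), of MYOSLID and ZBTB11-AS1, which hold the words searched, and of MAP3K4-AS1, which is transcribed head to head with a coding gene that fell with it. Capitals mark TGGGAA (the core of the site of RBPJ, the DNA-binding partner of Notch), its longer form GTGGGAA, and TGAGTCA (the site of AP-1), on either strand. TGAGTCA was added after the sequences had been seen.
CYTOR promoter, chr2:87455177-87455476, plus strand: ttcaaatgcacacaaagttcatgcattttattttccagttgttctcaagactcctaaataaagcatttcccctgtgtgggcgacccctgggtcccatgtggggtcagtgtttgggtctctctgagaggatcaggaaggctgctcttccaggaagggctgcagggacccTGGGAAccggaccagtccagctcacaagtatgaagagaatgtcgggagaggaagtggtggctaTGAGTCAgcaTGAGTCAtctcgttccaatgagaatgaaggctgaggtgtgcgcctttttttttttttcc
MYOSLID promoter, chr2:207239561-207239860, plus strand: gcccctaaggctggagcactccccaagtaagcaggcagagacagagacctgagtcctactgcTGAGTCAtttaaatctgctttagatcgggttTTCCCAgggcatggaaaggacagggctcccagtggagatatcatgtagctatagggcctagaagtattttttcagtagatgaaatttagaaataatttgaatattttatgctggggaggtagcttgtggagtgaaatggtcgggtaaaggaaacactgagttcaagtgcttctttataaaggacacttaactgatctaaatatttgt
MAP3K4-AS1 promoter, chr6:160992293-160992592, minus strand: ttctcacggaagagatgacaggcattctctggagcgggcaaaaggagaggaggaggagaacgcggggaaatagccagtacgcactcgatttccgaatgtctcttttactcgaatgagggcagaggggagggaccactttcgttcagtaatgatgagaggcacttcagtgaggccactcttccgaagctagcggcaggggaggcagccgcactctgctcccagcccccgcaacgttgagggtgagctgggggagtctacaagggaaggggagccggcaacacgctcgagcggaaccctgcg
DLGAP1-AS2 promoter, chr18:3603487-3603786, plus strand: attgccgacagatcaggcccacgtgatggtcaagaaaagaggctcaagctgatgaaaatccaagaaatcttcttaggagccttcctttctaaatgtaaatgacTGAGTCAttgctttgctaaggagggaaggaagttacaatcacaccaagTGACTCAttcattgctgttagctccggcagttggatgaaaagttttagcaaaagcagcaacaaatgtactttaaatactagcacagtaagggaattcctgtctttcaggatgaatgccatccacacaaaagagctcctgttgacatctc
ZBTB11-AS1 promoter, chr3:101676180-101676479, plus strand: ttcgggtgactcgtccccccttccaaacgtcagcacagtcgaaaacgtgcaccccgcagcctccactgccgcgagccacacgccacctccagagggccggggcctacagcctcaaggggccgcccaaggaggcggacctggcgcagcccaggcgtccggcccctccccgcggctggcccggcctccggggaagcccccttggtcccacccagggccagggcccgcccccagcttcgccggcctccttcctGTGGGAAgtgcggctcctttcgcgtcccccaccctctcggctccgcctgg

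The promoters of CYTOR and DLGAP1-AS2, which moved in opposite directions, each held TGAGTCA at 2 positions, and that of MYOSLID held it at 1. Over all 35116 promoters of the same length, 4.95% held this word, against 5.16% of the members, 7.81% of the 64 higher and 17.6% (3) of the 17 lower members with a sequence. TGGGAA stood in 24.0% of all promoters and in 20.2% of the members (43 of 213), with 10 of 64 among the higher and 6 of 17 among the lower. The longer GTGGGAA, which contains it, stood in 6.25% of all promoters and 6.57% of the members, and in 0 of the 17 lower ones. TTGCATCA (the word of ATF4) stood in 0.866% of all promoters and 2 of the 213, while the E2F words TTTGGCGC and TTTCCCGC stood in 0.652% and 1.63% of all promoters and in 1 and 3 of the members. These are matches of letters and do not show binding. Promoters of the members held a median of 25 CG pairs (23 for the higher and 17 for the lower members), compared with 14 over all promoters. All promoters were not chosen by level, as the members were, so the difference cannot be taken as a trait of these lncRNAs.

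In the control cells and the treated cells alike, a few transcripts held many of the lncRNA counts. Mean levels of the members ran from 5.01 to 1118 CPM with a median of 10.8 CPM. Only 9 members reached 100 CPM and 171 lay under 10 CPM. Together the members took up 0.778% to 0.815% of the counts in the control libraries and 0.867% to 0.901% with DAPT, so that the ranges did not overlap. Their summed level was 8149, 7779 and 7897 CPM in control and 8673, 9011 and 8926 CPM with DAPT. Leaving out NEAT1, the member with the most counts, the sums were 6960, 6775 and 6857 CPM compared with 7699, 7747 and 7690 CPM. The 5 members with the most counts held 32.6% to 35.2% of the sum in each library.

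Levels of different genes can be compared only per length, as TPM (counts divided by exonic length before scaling to the library), where UCA1 was first with a mean of 579 TPM and NORAD second with 428 TPM. UCA1, named for urothelial carcinoma, read 571, 581 and 579 TPM in control and 648, 552 and 544 TPM with DAPT. NORAD, a cytoplasmic RNA that binds Pumilio proteins, read 382, 352 and 375 TPM in control and 471, 470 and 518 TPM with DAPT. In both groups every library of UCA1 lay above every library of NORAD. ENSG00000269968 had the next mean, 191 TPM, followed by NEAT1 (178 TPM) and MIR205HG (174 TPM), and the ranges of these neighbours in the order overlapped. All exonic bases of ENSG00000269968, on chromosome 12, lie opposite exons of GAPDH, the abundant glycolytic enzyme, and its level per length was 3.56% of that of GAPDH. LINC01503 (148 TPM), an lncRNA of squamous carcinomas, MIR31HG (106 TPM), MALAT1 (103 TPM), PITPNA-AS1 (99.3 TPM) and ZDHHC12-DT (92.7 TPM) completed the first 10.

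**Figure D1:**
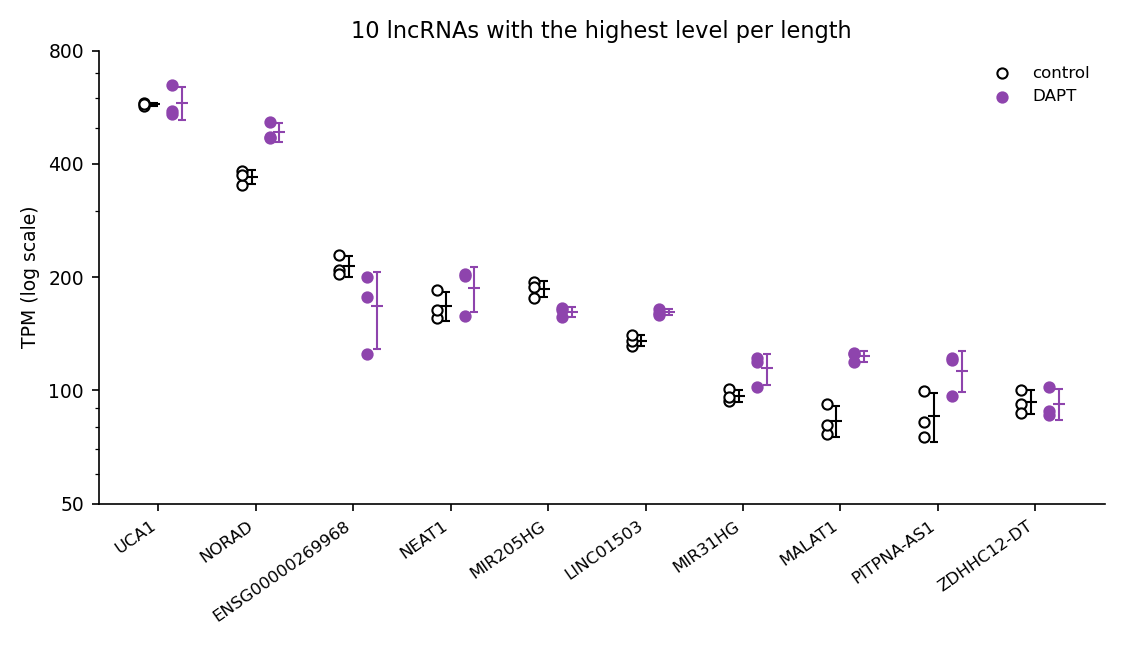
Level per length (TPM, log scale) of the 10 lncRNAs with the highest mean, in each control (open circles) and DAPT library (filled circles), with the mean ± SD of the 3 libraries beside the points. UCA1 lies at 544 TPM or more in all 6 libraries, and the ranges of control and DAPT are separate for NORAD, LINC01503 and MALAT1 among others. TPM are not scaled by TMM, so differences between the groups here can depart from the tested changes. UCA1 averaged 577 TPM in control and 581 TPM with DAPT, but 687 and 646 CPM after TMM.

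The signal of ENSG00000269968 had to be read with the strand in mind. Over 155 pairs in which an lncRNA has at least 50% of its exonic bases opposite the exons of a coding gene of at least 100 CPM, the lncRNA had a median of 1.85% of the coding gene's level per length (quartiles 0.718% and 3.30%, highest 25.0%). At 3.56% ENSG00000269968 lay just above the upper quartile of these pairs. It read 25.3, 28.0 and 24.4 CPM in control and 14.2, 19.96 and 22.4 CPM with DAPT, a log2 change of −0.47 ± 0.14 (SE; adjusted p = 0.0219, edgeR), a call that was lost without control replicate 1 (adjusted p = 0.0675) or control replicate 2 (adjusted p = 0.0736), and GAPDH changed by −0.31 ± 0.05. Reads of GAPDH assigned to the wrong strand cannot be told apart from its own transcript.

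More members rose than fell with DAPT. In the quasi-likelihood test of edgeR, with p-values adjusted by Benjamini-Hochberg over all 15001 tested genes and a limit of 0.05, 131 of 358 members were called changed (36.6%), 97 of them higher (27.1%) and 34 lower (9.50%). Of all tested genes, 35.2% were called, 17.2% as higher and 18.0% as lower. Among 10819 tested coding genes with the same minimum level, the shares were 41.0%, 20.1% and 20.9%. The share of members called was thus near the background, and 74.0% of the called members were higher, against 48.7% of all called genes. With libraries scaled by their size alone, which moved the median of all genes from 0.01 to 0.06, these shares were 79.6% and 61.5%. Without control replicate 1, 126 members were called, 95 higher and 31 lower, and 116 of the 131 were among them.

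The median log2 fold change of the members was 0.14, compared with 0.01 over all tested genes and 0.01 over the coding genes, and 240 of 358 members had a value above 0. Values ran from −1.01 to 0.99, so that the changes were small. Only CYTOR among the called members changed at least 2-fold, and 30 of the 358 were called with a change of at least 1.5-fold. Of all 15001 tested genes, 356 were called at 2-fold or more and 1050 at 1.5-fold or more. Of the 10819 coding genes with the same minimum level, these counts were 105 and 455. For 172 members (48.0%, background 46.3% of all tested genes) the 3 DAPT libraries did not overlap with the 3 controls, with DAPT above in 124 and below in 48. With 3 libraries a group, an exact permutation test of a single gene cannot give a p below 0.1. Of 1269 tested lncRNA genes under the 5 CPM limit, 95 were called higher and 83 lower (14.0% called, against 35.2% of all tested genes).

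**Figure D2:**
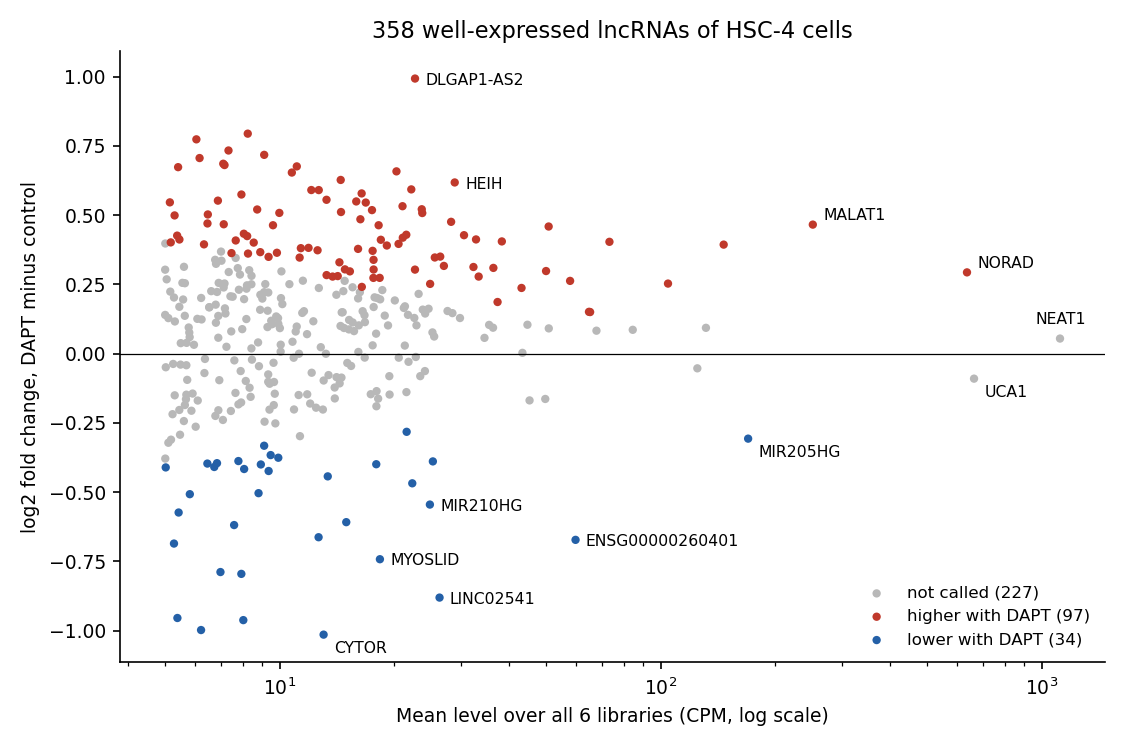
Mean level over all 6 libraries (CPM, log scale) against the log2 fold change, DAPT minus control, of each of the 358 members. Red and blue points are the 97 members called higher and the 34 called lower, and grey points the other 227, which include NEAT1, the member with the most counts.

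**Figure D3:**
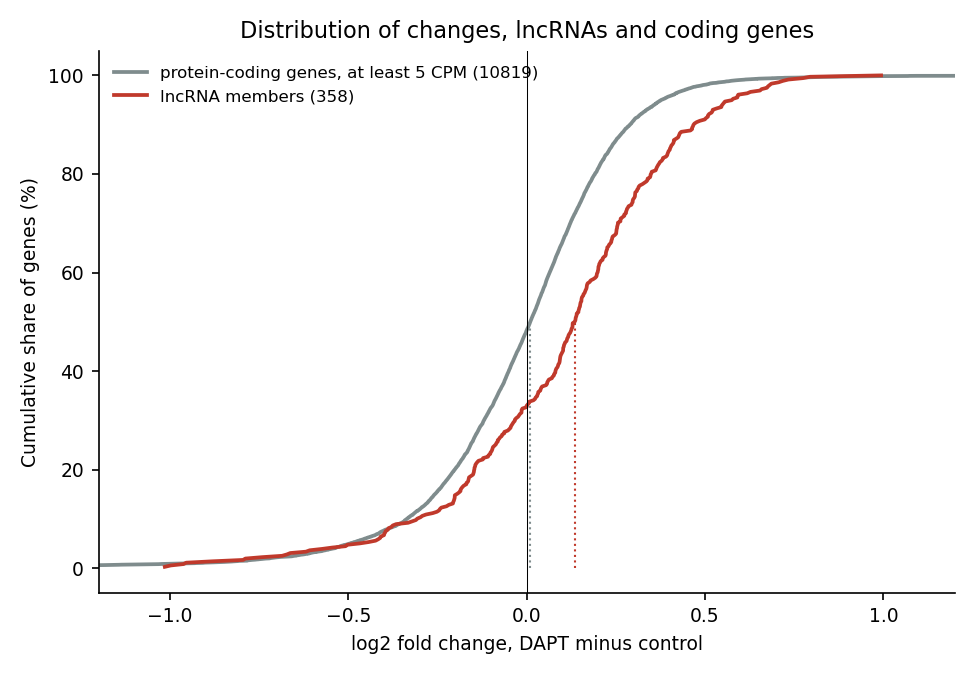
Cumulative share of genes (%) by log2 fold change, DAPT minus control, for the 358 members (red) and 10819 coding genes of at least 5 CPM (grey), with dotted lines at the medians of 0.14 and 0.01. The curve of the members lies to the right of that of the coding genes from modest decreases upward, and both curves run together at the largest decreases.

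The balance of calls differed along the level. In the lowest group of 120 members by mean CPM, 20 were higher and 15 lower (29.2% called, against 35.2% of all tested genes). In the middle group of 119 the counts were 28 and 10 (31.9% called), and in the highest group of 119 they were 49 and 9 (48.7%). Calls depend on depth, so that more calls are made at high levels, and the change in the balance was not tested. By kind of symbol, 19 of 54 LINC genes were higher and 4 lower (42.6% called, median 0.17). Of 122 antisense genes 33 were higher and 12 lower (36.9% called, median 0.15), and of 50 divergent transcripts 11 higher and 3 lower (28.0% called, median 0.10). Genes without a symbol gave 15 higher and 8 lower of 72 (31.9% called). Of 11 hosts named for a microRNA, 1 was higher and 3 lower (36.4% called, near the 35.2% of all tested genes), with a median of −0.06. Without control replicate 1 the counts by level were 19 and 13, 27 and 9, and 49 and 9. By symbol they were 17 higher and 4 lower LINC genes, 11 and 2 divergent transcripts, and 15 and 6 genes without a symbol, and the antisense genes and hosts kept their counts.

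CYTOR, the cytoskeleton regulator RNA on chromosome 2 (87454781 to 87636740, GRCh38), had the largest fall. It read 15.0, 18.6 and 19.3 CPM in control and 9.42, 8.70 and 7.84 CPM with DAPT, a log2 fold change of −1.01 ± 0.12 (SE, n = 3 per group; adjusted p = 5.51e-07, edgeR). All 3 DAPT libraries lay below all 3 controls. Its relative MIR4435-2HG, a copy on the other arm of the chromosome, read 15.3, 14.1 and 17.5 CPM in control and 9.94, 9.73 and 9.83 CPM with DAPT. It fell by 0.66 ± 0.11 on the log2 scale (adjusted p = 4.82e-05, edgeR), again without overlap. The exons of these genes share 1708 windows of 75 bases, 10.8% of those of CYTOR and 15.3% of those of MIR4435-2HG. Reads that map to several places were left out of the counts, so shared stretches count for neither gene and the level of each is uncertain.

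SH3PXD2A-AS1, on chromosome 10 within the bounds of SH3PXD2A on the other strand, read 8.53, 7.22 and 9.36 CPM in control and 4.35, 4.61 and 3.53 CPM with DAPT. The fall was 2-fold (log2 fold change −0.998 ± 0.15, adjusted p = 2.30e-05, edgeR), whereas SH3PXD2A, which encodes an adaptor of invadopodia, changed by −0.09 ± 0.06 and was not called. SCAT1, on chromosome 17, read 9.40, 11.9 and 10.9 CPM in control and 5.78, 6.07 and 4.53 CPM with DAPT (log2 fold change −0.96 ± 0.14). ENSG00000285108, on chromosome 8, read 7.72, 7.22 and 6.46 CPM against 2.92, 3.87 and 4.38 CPM (−0.95 ± 0.16). In each of these genes the groups were apart.

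LINC02541, an intergenic lncRNA on chromosome 6, stood at a higher level, with 35.9, 34.4 and 32.7 CPM in control and 19.6, 19.8 and 16.5 CPM with DAPT. Its log2 fold change was −0.88 ± 0.08 (adjusted p = 3.37e-08, edgeR). MYOSLID, known as a myocardin-induced lncRNA of smooth muscle, read 23.3, 22.5 and 23.4 CPM in control and 13.0, 14.7 and 13.7 CPM with DAPT (log2 fold change −0.74 ± 0.09, adjusted p = 7.64e-07, edgeR). Its control values, with control replicate 1 among them, lay within 1 CPM of each other. ENSG00000227496, on chromosome 1, read 8.59, 9.39 and 8.78 CPM in control and 5.07, 5.19 and 5.22 CPM with DAPT (−0.79 ± 0.13).

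ENSG00000260401, on chromosome 11 (73238975 to 73242335), had the most counts among the 10 largest falls, at 73.3, 76.6 and 71.8 CPM in control and 46.3, 43.6 and 49.3 CPM with DAPT. It fell by 0.67 ± 0.06 on the log2 scale (adjusted p = 2.74e-08, edgeR). The gene starts 2623 bases downstream of P2RY2, a nucleotide receptor, on the same strand, and P2RY2 changed by −0.55 ± 0.08. Transcription that runs on from P2RY2 cannot be told apart from a separate transcript in these counts. Members of this kind were few: 31 lay within 5000 bases downstream of a coding gene on its strand, of which 9 were called (29.0%), and 19 lay inside such a gene, of which 5 were called (26.3%), compared with 35.2% of all tested genes. Without control replicate 1, 22.6% and 21.1% were called.

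BSG-AS1 had the largest standard error of these falls. Control replicate 1 read 4.98 CPM, the other controls 7.51 and 7.29 CPM and the DAPT libraries 4.42, 4.31 and 3.38 CPM (log2 fold change −0.69 ± 0.17, adjusted p = 0.00395, edgeR). BSG, its head-to-head neighbour and a surface glycoprotein, changed by 0.06 ± 0.05 and was not called. MAP3K4-AS1 read 10.3, 10.04 and 10.1 CPM in control and 5.91, 6.14 and 5.46 CPM with DAPT (−0.80 ± 0.12, adjusted p = 2.74e-05, edgeR).

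**Figure D4:**
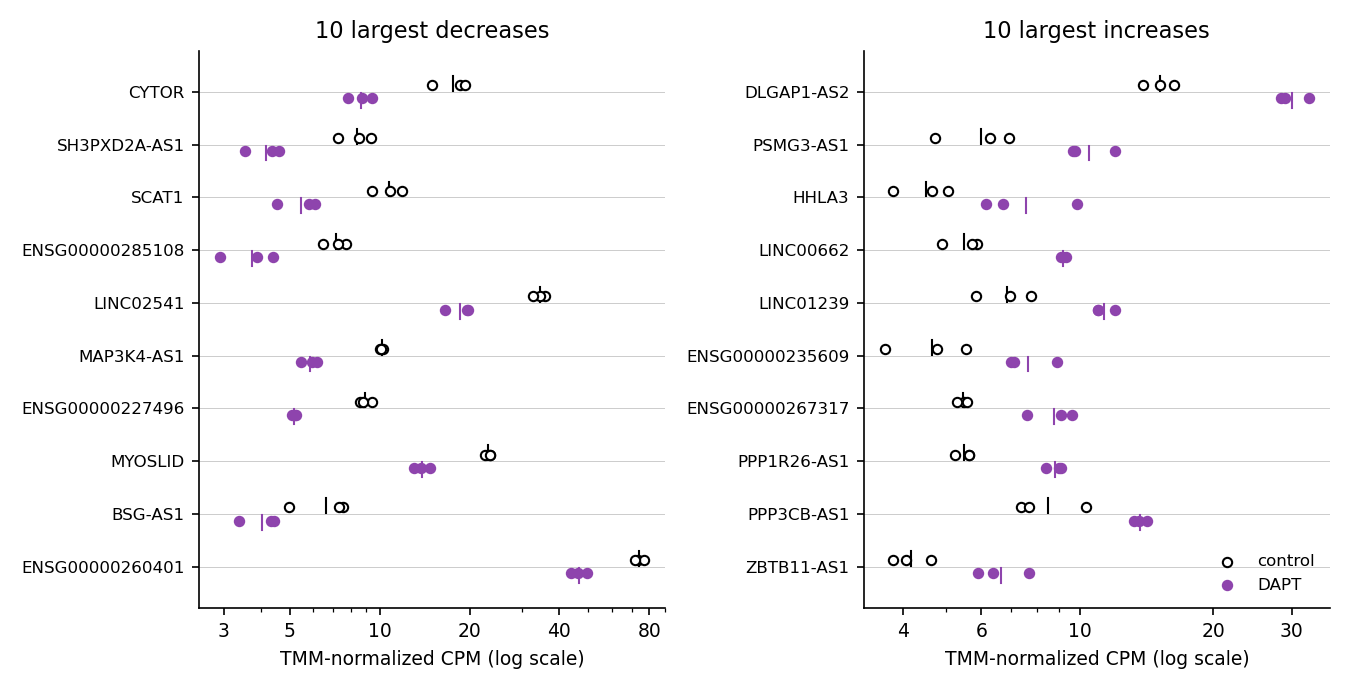
Level (TMM-normalized CPM, log scale) of the 10 called members with the largest fall (left) and the largest rise (right) in each control (open) and DAPT (filled) library, with short lines at the group means. The groups do not overlap in any of the 20 genes, and DLGAP1-AS2 at 28.4 to 32.8 CPM with DAPT stands apart from the other rises by its level.

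DLGAP1-AS2, on chromosome 18 (3603000 to 3608336) inside DLGAP1 on the other strand, had the largest rise. It read 13.9, 16.3 and 15.2 CPM in control and 28.4, 32.8 and 29.0 CPM with DAPT, a 1.99-fold increase (log2 fold change 0.99 ± 0.09, n = 3 per group, adjusted p = 9.62e-09, edgeR). DLGAP1 itself, a scaffold of neuronal synapses, was close to the limit at 0.859 CPM and was not called. PSMG3-AS1 read 6.29, 6.93 and 4.72 CPM in control and 9.68, 12.0 and 9.76 CPM with DAPT (0.79 ± 0.14, adjusted p = 0.000152, edgeR). HHLA3, named for an HERV-H repeat in its transcript, read 3.80, 5.06 and 4.64 CPM against 9.87, 6.73 and 6.15 CPM (0.77 ± 0.18), with DAPT replicate 1 well above the others.

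LINC00662 read 5.85, 5.71 and 4.89 CPM in control and 9.16, 9.07 and 9.30 CPM with DAPT, with a log2 fold change of 0.73 ± 0.13 (adjusted p = 0.000128, edgeR). LINC01239, on the short arm of chromosome 9, read 7.78, 5.85 and 6.96 CPM against 12.0, 11.0 and 11.0 CPM (0.72 ± 0.12). The remaining 5 of the 10 largest rises were ENSG00000235609, ENSG00000267317, PPP1R26-AS1, PPP3CB-AS1 and ZBTB11-AS1, with log2 fold changes from 0.67 to 0.71. ENSG00000235609, on chromosome 21, shares 27.7% of its exonic bases with another gene on its strand, so that its value is uncertain. Of the coding genes that overlap these members, ZBTB11 rose by 0.28 ± 0.08 and USP54 beside PPP3CB-AS1 by 0.32 ± 0.06, whereas PPP1R26 (−0.05 ± 0.08) and PPP3CB (0.00 ± 0.06) were not called.

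The nuclear lncRNAs of known architecture gave 3 higher, 0 lower and 4 not called of 7 members, with a median log2 fold change of 0.22 (42.9% called, where 35.2% of all tested genes were). Without control replicate 1, 4 were higher. Of 3 genes of the list that were tested but were not members, 1 was higher (TUG1) and 1 lower. The lower one was HOTTIP, at a mean of 2.00 CPM (−0.98 ± 0.23, adjusted p = 0.00236, edgeR). MALAT1, a transcript of nuclear speckles, read 233, 195 and 203 CPM in control and 282, 297 and 293 CPM with DAPT. It rose by 0.47 ± 0.06 (adjusted p = 2.80e-06, edgeR) without overlap. NEAT1, the scaffold of paraspeckles, read 1208, 1027 and 1058 CPM in control and 968, 1238 and 1215 CPM with DAPT. Its groups overlapped and the 95% interval of its log2 fold change ran from −0.20 to 0.31 (0.05, adjusted p = 0.736, edgeR). FTX, of the X-inactivation centre, read 59.7, 49.5 and 48.5 CPM in control and 63.3, 63.5 and 63.0 CPM with DAPT (0.26 ± 0.07, adjusted p = 0.00671, edgeR). JPX, from the same centre, read 35.4, 31.4 and 30.7 CPM against 43.9, 40.8 and 36.3 CPM (0.31 ± 0.08, adjusted p = 0.00521, edgeR). Without control replicate 3 FTX was not called (adjusted p = 0.0576, edgeR). For both genes control replicate 1 was the highest of the controls and still lay below the DAPT libraries.

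Of the lncRNAs known to act in the cytoplasm as decoys, 1 was higher, 2 lower (CYTOR and MIR4435-2HG) and 2 not called of 5 members. This was 60.0% called, against 35.2% of all tested genes. Without control replicate 1, 2 were higher and 2 lower. Of 4 genes of the list that were tested but were not members, 0 were higher and 0 lower. NORAD was the member that rose, from 593, 549 and 575 CPM to 685, 678 and 743 CPM (0.29 ± 0.05, adjusted p = 0.000102, edgeR). UCA1 read 681, 698 and 683 CPM in control and 724, 612 and 600 CPM with DAPT (−0.09 ± 0.06, adjusted p = 0.260, edgeR). Its DAPT libraries lay on both sides of the controls, and without DAPT replicate 1 UCA1 was called lower (−0.18, adjusted p = 0.00595, edgeR). OIP5-AS1, the human Cyrano transcript, was not called (0.09, interval −0.02 to 0.20), although it was called higher without control replicate 1 (0.13, adjusted p = 0.0450, edgeR).

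Of 13 members listed as microRNA hosts, 2 were higher, 3 lower and 8 not called (38.5% called, against 35.2% of all tested genes), with a median of −0.06. This list and the members with a hairpin differ in part. Hairpins of chromosome 8 were not searched, and none was found for MIR22HG, although it is named as the host of a microRNA. The search was thus incomplete, and its count of hosts can be too low. The counts of the list were the same without control replicate 1. MIR205HG, the most abundant of them per length, read 197, 180 and 189 CPM in control and 148, 156 and 153 CPM with DAPT. It fell by 0.31 ± 0.05 (adjusted p = 6.87e-05, edgeR), and the squamous markers fell in sum in the same libraries. Whether the fall of both had a common source was not tested. MIR210HG, host of the hypoxia microRNA, read 29.3, 30.1 and 29.2 CPM in control and 17.2, 22.7 and 21.1 CPM with DAPT (−0.54 ± 0.09, adjusted p = 5.93e-05, edgeR). MIR22HG moved the other way, from 16.9, 17.3 and 17.3 CPM to 24.4, 26.9 and 23.2 CPM (0.53 ± 0.08, adjusted p = 3.33e-05, edgeR). Its control values spanned less than 1 CPM. MIR31HG, on chromosome 9, read 20.1, 21.7 and 20.3 CPM against 24.6, 20.3 and 23.5 CPM and was not called.

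Of 15 members known from squamous carcinomas, 6 were higher, 2 lower and 7 not called, and their median of 0.13 was close to that of all members. This was 53.3% called, against 35.2% of all tested genes, and without control replicate 1 it was 33.3%, with 3 higher and 2 lower. Of 11 genes of the list that were tested but were not members, 1 was higher and 3 lower. The higher ones were LINC00662, CASC9, HCP5, DLEU1, TTN-AS1 and LINC01503. CASC9, first described in oesophageal carcinoma, read 13.5, 13.5 and 11.6 CPM in control and 20.1, 19.4 and 17.1 CPM with DAPT (0.55 ± 0.10, adjusted p = 0.000159, edgeR). HCP5, an lncRNA of the MHC class I region, read 39.2, 44.5 and 44.8 CPM against 55.6, 62.7 and 58.1 CPM (0.46 ± 0.07, adjusted p = 2.84e-05, edgeR). Both were apart between the groups. LINC01503, one of the most abundant per length, read 60.2, 62.3 and 63.6 CPM against 68.3, 68.2 and 69.8 CPM (0.15 ± 0.06, adjusted p = 0.0414, edgeR). The smaller rises of DLEU1 (0.28 ± 0.10, adjusted p = 0.0312) and TTN-AS1 (0.24 ± 0.09, adjusted p = 0.0434) in the same edgeR test also lay near the limit. The calls of LINC01503 and TTN-AS1 were lost in each of the 6 fits without a library, with adjusted p from 0.0722 to 0.137 and from 0.0610 to 0.142, and that of DLEU1 in all but the fit without control replicate 2, with adjusted p from 0.0530 to 0.111 where it was lost. The stress and p53 list gave 2 higher (MIR22HG and NORAD), 1 lower (MIR210HG) and 3 not called of 6. This was 50.0% called, against 35.2% of all tested genes, with the same counts of calls without control replicate 1.

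None of the 4 genes listed for a link with Notch was a member. The lncRNAs among them lay under the level limit and were not called, namely NALT1 (log2 fold change −0.33 ± 0.16), LUNAR1 (−0.79 ± 0.37) and MIR34AHG (−0.26 ± 0.21). TUG1, annotated as protein-coding in GENCODE 44, was called higher (0.15 ± 0.05, adjusted p = 0.0176, edgeR).

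The members with the narrowest intervals among those not called were FGD5-AS1 (−0.05, interval −0.16 to 0.05), OIP5-AS1 and CALML3-AS1 (0.08, interval −0.03 to 0.20). FGD5-AS1 read 132, 125 and 125 CPM in control and 119, 124 and 127 CPM with DAPT. At this precision a change of the size seen for MALAT1 lay outside all 3 intervals.

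At the lower edge of the choice, the members just inside had means of 5.01 CPM for ENSG00000275765, 5.01 CPM for ENSG00000273329 and 5.01 CPM for NUP50-DT. Just outside were LINC00460 at 4.99 CPM, ENSG00000256433 at 4.97 CPM and MTA1-DT at 4.92 CPM. LINC00460 read 6.54, 7.87 and 6.38 CPM in control and 3.18, 2.71 and 3.53 CPM with DAPT, so that its mean over both groups placed it below the limit.

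Many members share a promoter region or bases with a coding gene. Of the 358, 132 lay head to head with a coding gene, with starts within 1000 bases on opposite strands, in 133 pairs, 129 of which had a tested coding gene. Of those 129 coding genes 44 were called (34.1%), near the background of all genes. Both partners were called in 18 pairs, in the same direction in 14 (12 higher and 2 lower) and in opposite directions in 4. These counts are a description, and they lean on values near the limit: only in 4 pairs, all in the same direction, were both partners called in all 6 fits without a library. These were MAP3K4-AS1 with MAP3K4, HHLA3 with ANKRD13C, CCDC18-AS1 with DR1, and FAM201A with ANKRD18A.

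The 2 pairs that fell were SLC2A1-DT with SLC2A1 and MAP3K4-AS1 with MAP3K4. SLC2A1-DT read 7.78, 6.86 and 8.53 CPM in control and 5.46, 6.51 and 5.46 CPM with DAPT (−0.41 ± 0.14, adjusted p = 0.0257, edgeR), and its start lay 127 bases from that of SLC2A1, the glucose transporter GLUT1. SLC2A1 went from 744 ± 35.1 to 538 ± 7.49 CPM (SD, n = 3), a log2 fold change of −0.47 ± 0.05. MAP3K4, a kinase upstream of p38 and JNK, went from 181 ± 6.45 to 141 ± 2.10 CPM (−0.36 ± 0.05), while MAP3K4-AS1 changed by −0.80. SLC2A1-DT kept its call in 3 of the 6 fits without a library, and SLC2A1 in all 6. The level per length was 1.48% of the coding gene for SLC2A1-DT and 18.3% for MAP3K4-AS1.

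Pairs in which both rose included HHLA3 with ANKRD13C (0.26 ± 0.07), FAM201A (0.42) with ANKRD18A (0.58 ± 0.15), and CCDC18-AS1 (0.52) with DR1, a repressor of transcription that binds TBP (0.18 ± 0.05). The 4 opposed pairs had a higher lncRNA and a lower coding gene, and in none of them were both called in all 6 fits without a library. They were CDC20-DT (0.39) with the mitotic activator CDC20 (−0.30 ± 0.05), PSMG3-AS1 with the proteasome chaperone PSMG3 (−0.20 ± 0.07), DPP3-DT (0.36) with the peptidase DPP3 (−0.15 ± 0.05) and ENSG00000285796 (0.52) with PCIF1 (−0.23 ± 0.06). Members that overlap a coding gene on the other strand gave 122 pairs with a tested coding gene. Of the 121 coding genes in these pairs 45 were called (37.2%, against 35.2% of all tested genes). Both partners were called in 19 pairs, of which 11 were in the same and 8 in opposite directions. The calls of these pairs were not followed through the fits without a library.

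**Figure D5:**
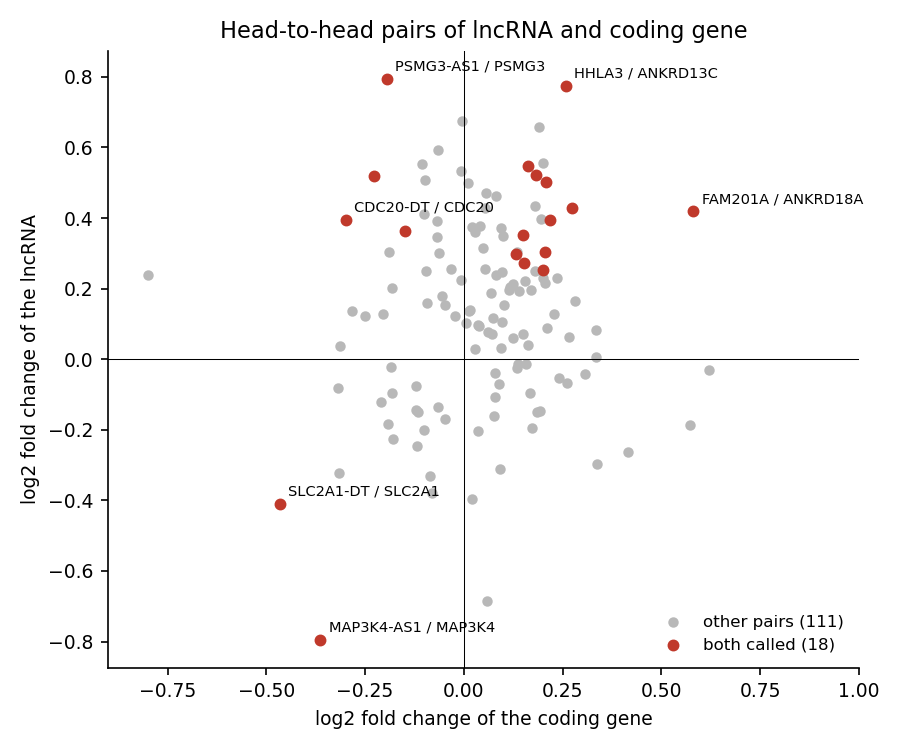
Log2 fold change, DAPT minus control, of the coding gene (horizontal) and of the lncRNA (vertical) in the 129 tested head-to-head pairs. Red points are the 18 pairs with both partners called, of which 14 lie in the upper right or lower left of the plot and 4, all with a higher lncRNA, in the upper left.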

How the data were processed

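Gene counts of 6 libraries were analysed, with per-library depth as given above. Per the file headers and the study's methods, the authors mapped trimmed single-end reads of a directional library to GRCh38 with HISAT2, and the deposited counts were made with featureCounts 1.6.3 on exons of Ensembl release 96, with the strand option set and reads that map to several places left out. The submitters' processing notes list HTSeq and DESeq2 instead. Of 58884 gene IDs, 58472 matched GENCODE 44, which gave the biotypes, and 412 did not. CPM and TPM were computed from the counts.

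Genes were filtered with filterByExpr (minimum count 10), scaled by TMM and tested with edgeR 4.0.16 (quasi-likelihood, robust), with Benjamini-Hochberg adjustment over 15001 genes. The script was tested on simulated data. Alternatives were RLE factors, library size alone, no filter, limma-voom, DESeq2 1.42.0, other limits, each library left out, the replicate number as a block and a GC and length offset, the last added after the data were seen. The members and lists were chosen with earlier results of these data known. Named genes were the 10 largest called changes in each direction, the 10 highest by TPM, called or abundant list members, 3 precise uncalled members, those at the 5 CPM edge, and their coding neighbours. Other genes were named after their values were seen. The limit of detection covers counting error only.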

Additional observations from a re-analysis of the deposited data

How the results depend on the processing

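The count of called members was 131 with 97 higher and 34 lower. With an adjusted p under 0.01 it was 87 called and 21 lower. Requiring a 1.5-fold change gave 30 called, 17 higher and 13 lower. Members from 2 CPM gave 220 called and 81 lower, and members from 10 CPM gave 79 called and 13 lower, because the number of genes in the set changed. Without a single library the counts ran from 102 to 126 called, 74 to 95 higher and 27 to 31 lower, and 82 of the 131 were called in all 6 of these fits. DESeq2 called 90, all among the 131. Scaling by library size alone moved the median of all genes from 0.01 to 0.06 and gave 152 called, 121 higher and 31 lower, with 61.5% of all called genes higher against 48.7%. The GC and length offset gave 150 called, with 117 higher. In all these fits the median of the members stayed 0.108 to 0.143 above that of all genes. NEAT1, which was not called, ran from −0.0076 (without DAPT replicate 2) to 0.16 (without DAPT replicate 1). Values were compared across the settings for 47 named genes, which were HES1 and named members. Among these 658 values, 615 kept their direction and side of the limit, 35 lost the call, 7 gained it and 1 reversed. The replicate numbers did not pair the libraries (correlations of same-numbered deviations 0.02, 0.09 and −0.04 over 11362 genes). With them as a block, 131 members were called, 97 higher and 34 lower, and 130 were shared. Members near 5 CPM rest on few reads, and small changes there were not detectable at this depth.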

Other observations

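The following members were named after their values had been seen. The 5 members that carry the name of a HOX gene or its cluster, which encode positional transcription factors, gave 1 higher, 1 lower and 3 not called. This was 2 of 5 called, where 35.2% of all tested genes were. HOXC13-AS, head to head with HOXC13, read 15.0, 17.0 and 15.1 CPM in control and 25.9, 25.0 and 23.4 CPM with DAPT, a rise of 0.66 ± 0.09 on the log2 scale (edgeR, n = 3 per group), while HOXC13 changed by 0.19 ± 0.08 and was not called. HOXA10-AS fell by 0.38 ± 0.11, from 11.1, 11.6 and 11.0 CPM to 8.05, 8.63 and 9.37 CPM. HOXA-AS2 (0.15 ± 0.08), HOTAIRM1 (0.22 ± 0.09) and HOTAIR (−0.18 ± 0.12) were not called.

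BISPR, a divergent lncRNA of the interferon-induced gene BST2, read 11.4, 9.03 and 11.8 CPM in control and 16.8, 15.5 and 15.1 CPM with DAPT (0.56 ± 0.11), whereas BST2 changed by 0.20 ± 0.09 and was not called. FLG-AS1, which runs through the filaggrin genes of the epidermal differentiation complex on the other strand, fell from 11.6, 10.3 and 10.3 CPM to 7.66, 8.19 and 8.30 CPM (−0.42 ± 0.11), while FLG itself was nearly absent, at a mean of 0.0599 CPM. HEIH rose from 20.5, 24.3 and 23.4 CPM to 33.3, 36.6 and 34.6 CPM (0.62 ± 0.08).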
